A study of Mus musculus with 36 samples.

Results

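In mouse embryonic stem cells, 2701 genomic regions carried a Sox2 peak in serum medium but in neither sampling of 2i medium, together with a Nanog peak in at least 1 Nanog list and with no Oct4 peak. They were found by merging the 3 Sox2 peak lists on chromosomes 1 to 19 wherever peaks overlapped by at least 1 bp, which gave 19774 Sox2 regions, of which the 2701 make up 13.7%. They are 21.3% of the 12684 regions with a serum Sox2 peak. Of the 3796 regions where Sox2 was called in serum alone, the 2701 are 71.2%, while 670 had neither Nanog nor Oct4, 386 had both and 39 had Oct4 without Nanog. The regions were chosen by the Sox2, Nanog and Oct4 peak calls, so the presence of Sox2 in serum, its absence in 2i and the presence of Nanog somewhere are how the regions were chosen and not results. H3K4me3 played no part in the choice.

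The cells were KH2, an established mouse embryonic stem cell line, grown with LIF in serum medium on irradiated feeder fibroblasts, then for 24 h or for 3 passages in 2i medium with LIF. Sox2 and H3K4me3 were profiled by ChIP-seq at all 3 points, and Oct4 (Pou5f1) in serum and at 24 h. Nanog was profiled with 2 lots of 1 antibody: lot 1 in serum, at 24 h and at 3 passages, and lot 2 in GFP-high cells of serum, at 24 h, and at 24 h in a line that lacks the DNA methyltransferases (DNMT triple knockout, TKO). The labels do not say which reporter the GFP came from or how the TKO line was made, and they mark the 24 h culture as v1 for lot 1 and v3 for lot 2, without saying how these differ. Lot and culture version therefore cannot be told apart between the 24 h lists. The labels hold 2 samples each for Sox2 in serum and at 24 h, for H3K4me3 at each point and for Nanog lot 1 at each point, and 1 sample for each of the other lists. For Sox2 the labelled molecule is RNA, but an antibody is listed and the deposited files are peak lists, so these were read as ChIP-seq. The lists hold no expression values, so the labelled cell type was not checked against its markers.

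Sox2 and Oct4 are transcription factors that often bind DNA as a pair at enhancers of pluripotent cells, and Nanog is a homeodomain factor that shares many of these sites. Serum with LIF keeps embryonic stem cells in a mixed state in which Nanog levels vary from cell to cell. 2i adds inhibitors of MEK and of GSK3 and favours a naive state with less variation between cells. H3K4me3 is a histone mark found mainly at the start sites of active or poised genes, and is usually weak or missing at enhancers. In the regions described here, a serum Sox2 peak overlapped a peak of any Nanog list and no called Oct4 peak. The Nanog peak was not always from serum, and no Sox2 peak was called once the cells were in 2i.

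Each condition had 1 peak list with no value per replicate, so no comparison between conditions could be tested. Shares are given with an exact (Clopper-Pearson) 95% interval over regions, which covers counting error only, and beside the share of all 19774 Sox2 regions that had the same call. Read depth is unknown. The lists were cut at different stringency: the lowest −log10 q was 17.3 for Sox2 in serum against 3.69 at 24 h and 7.52 at 3 passages, and 86.4 and 85.9 in the Oct4 lists. The absence of Sox2 in 2i was thus read from lists that go down to smaller values than the serum list, and the absence of Oct4 from lists with a far higher minimum. The Nanog lists differed in length on chromosomes 1 to 19, from 21188 peaks (24 h, lot 2) to 40448 (24 h, lot 1), so Nanog shares are also given with all 6 lists limited to the 21188 peaks with the largest −log10 q. A set of 2022 Sox2 regions that were called in all 3 Sox2 lists, with Nanog and without Oct4, is given for comparison and called lasting regions below.

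The serum Sox2 peaks of the 2701 regions were of modest height. Each region held exactly 1 serum Sox2 peak. The median fold enrichment, the authors' ratio over the control for that peak, was 7.94 (quartiles 6.64 and 9.77, range 2.14 to 27.1), which lies at percentile 30.4 of the serum list. At the lasting regions the median serum fold was 11.6, at percentile 63.5. Their −log10 q ran from 17.3 to 185.1 with a median of 25.4, and 938 regions reached 30. The regions were 508 bp wide at the median (264 to 2340 bp), against 639 bp for lasting regions. These values belong to the measurement that chose the regions and are given as a description.

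At the edges of the rule, the member region nearest to a 24 h Sox2 peak (chr7:28541912-28542700, mm9) lay 51 bp from it, and the smallest overlap that placed a serum peak outside was 8 bp (chr6:47737909-47738664). For the 3 passage list these values were 73 bp inside (chr12:4359486-4359943) and 251 bp outside (chr8:64345663-64346017). The smallest Nanog overlap among members was 17 bp (chr5:22757541-22757902), and the nearest Nanog peak to an excluded region was 12 bp away (chr7:105917718-105918398). The member nearest to an Oct4 peak lay 80 bp from it (chr5:46397456-46397970), and the smallest excluding overlap with Oct4 was 55 bp (chr4:45782758-45783508).

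H3K4me3 was not called at most of the regions, and where it was present in serum it was mostly still called in 2i although Sox2 was not. In serum 485 of 2701 regions (18.0%, interval 16.5 to 19.5) overlapped an H3K4me3 peak, against 10.2% of all Sox2 regions. At 24 h the mark was called at 383 (14.2%, 12.9 to 15.6; all Sox2 regions 8.4%), and at 3 passages at 430 (15.9%, 14.6 to 17.4; all Sox2 regions 10.9%). In no list was it found at 2177 regions (80.6%; all Sox2 regions 86.8%). The order of the 3 shares, serum first and 24 h last, was the same with the H3K4me3 lists at an equal length of 16886 peaks, where they were 16.9%, 14.2% and 15.4%. The 24 h share of all Sox2 regions was also below the other two, so this dip is not limited to the serum-only regions. Over all 3796 serum-only Sox2 regions, with Nanog or not, the H3K4me3 shares were 21.9%, 17.6% and 19.6%. Shares above those of all Sox2 regions were thus not particular to the 2701 regions.

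H3K4me3 was called in all 3 conditions at 358 regions (13.3%; all Sox2 regions 7.27%). Counted over the 485 regions with the mark in serum, 371 (76.5%, 72.5 to 80.2) had it at 24 h and 399 (82.3%, 78.6 to 85.6) at 3 passages. Among all Sox2 regions with serum H3K4me3, 74.7% and 82.3% had it, so the regions without Sox2 in 2i were close to the background in both conditions. Lasting regions, where Sox2 was called throughout, had it at 67.0% (59.9 to 73.6) and 76.8% (70.2 to 82.5) of 194 regions, with intervals that overlap those of the serum-only regions. Of the 383 regions with H3K4me3 at 24 h, 362 (94.5%) had it at 3 passages.

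**Figure D1:**
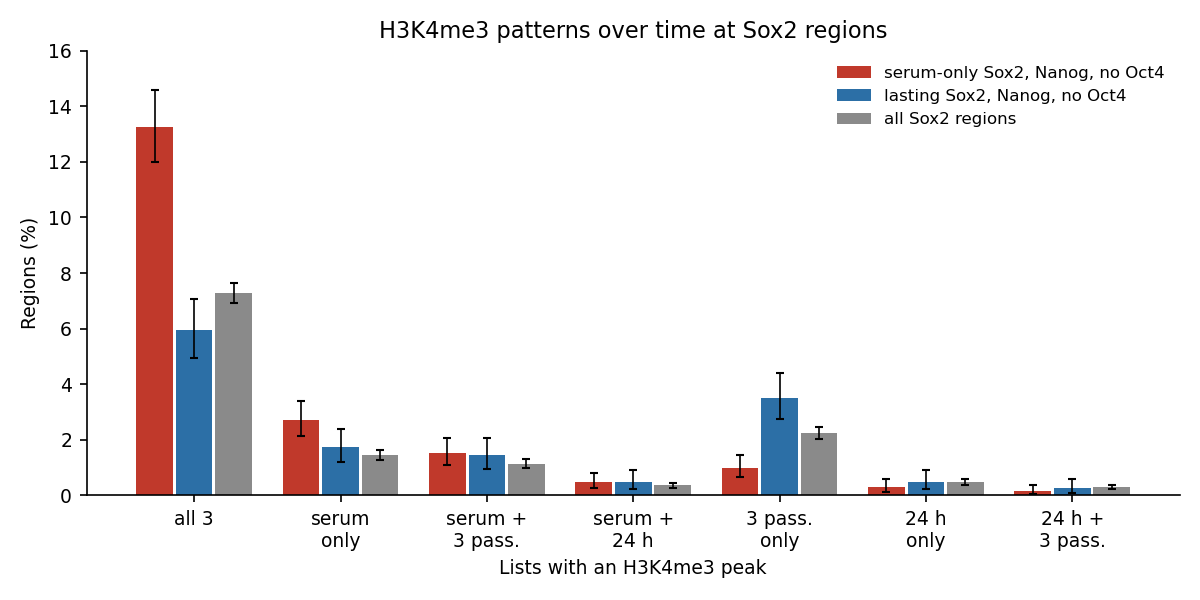
Share of regions (%) by the set of lists with an H3K4me3 peak, for serum-only Sox2 regions with Nanog and without Oct4 (red, n = 2701), lasting regions (blue, n = 2022) and all Sox2 regions (grey, n = 19774); bars are shares and error lines exact 95% intervals. Regions with the mark in no list are not drawn. The serum-only regions stand at 13.3% for all 3 lists, against 7.27% of all Sox2 regions, and the lasting regions are the highest for 3 passages alone, with 3.51%.

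How often the serum H3K4me3 peak was also called in 2i went with its height. With the whole serum H3K4me3 list split into 4 equal classes by fold, the mark was called at 24 h at 30.8%, 75.2%, 93.3% and 94.9% of the serum-only Sox2 regions from the lowest class to the highest. At 3 passages these shares were 43.3%, 85.7%, 95.8% and 95.5%. Lasting regions showed the same order, with 27.1%, 71.1%, 86.3% and 93.5% at 24 h and 55.9%, 78.9%, 84.3% and 93.5% at 3 passages. All Sox2 regions had 38.4%, 74.5%, 90.5% and 91.1% at 24 h and 55.4%, 84.7%, 91.8% and 94.4% at 3 passages. Serum H3K4me3 peaks not called in 2i were thus mostly low ones in all 3 sets, with Sox2 called in 2i or not.

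H3K4me3 was called in serum alone at 73 regions (2.70%; all Sox2 regions 1.45%), which are 15.1% of the 485 with the mark in serum, against a background of 14.2%. Their serum H3K4me3 peaks were low and narrow, with a median fold of 6.18 and a median width of 1201 bp, where the 358 regions marked throughout had 17.7 and 2385.5 bp. Of the 73, 19 still had a 24 h H3K4me3 peak within 1000 bp and 24 a 3 passage peak. A few of them were tall. The region chr7:34954450-34954935 lay in a serum H3K4me3 peak with a fold of 36.0 and a width of 4184 bp, and had Nanog peaks in serum (fold 10.8), at 24 h (6.36) and in GFP-high cells (7.78). At chr11:6425221-6425626 the serum H3K4me3 fold was 34.5, and Nanog was called only in the serum lists of lot 1 (6.66) and of GFP-high cells (6.04). At chr14:79133438-79134343 the serum H3K4me3 fold was 24.8, and Nanog was called in all 6 lists, with folds from 8.87 to 22.0. H3K4me3 calls in serum alone thus came both with and without Nanog peaks in 2i.

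The reverse was rarer. At 31 regions (1.15%; all Sox2 regions 2.54%) H3K4me3 was called at 3 passages and not in serum, and 4 of these also had it at 24 h. Their 3 passage peaks were low, with a median fold of 5.43 and a width of 655 bp, and 5 lay within 1000 bp of a serum peak. Counted over regions without the mark in serum, 31 of 2216 serum-only Sox2 regions (interval 0.952% to 1.98%) had it at 3 passages, against 76 of 1828 lasting regions (4.16%, 3.29 to 5.18). The tallest was chr7:52383861-52384757, with an H3K4me3 fold of 24.5 at 24 h and 33.4 at 3 passages, and Nanog folds of 7.18 at 24 h and 10.8 in TKO cells. The next were chr5:138072479-138072887 (27.01 at 3 passages), chr9:51854936-51855382 (17.3) and chr3:4744072-4744370 (7.67).

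Among the regions marked throughout, the tallest serum H3K4me3 peak covered chr5:5559027-5559697, with folds of 46.8 in serum, 41.6 at 24 h and 50.9 at 3 passages. Its only Nanog peak was at 24 h in lot 1 (fold 5.80). At chr7:25668761-25669818 the H3K4me3 folds were 42.2, 28.2 and 40.9, and Nanog was called in TKO cells alone (6.23). At chr11:98885229-98885821 they were 40.2, 34.3 and 52.3, with Nanog in all 3 lists of lot 1 (10.4, 12.2 and 6.51) and in TKO cells (19.4), the tallest Nanog peak among these 4 regions. At chr13:44829136-44829624 the serum H3K4me3 peak was 7124 bp wide with a fold of 37.2, and the folds in 2i were 8.29 and 9.72. Its Nanog folds were 6.08 in serum, 8.92 at 24 h and 7.58 in TKO cells. None of the 4 regions had Nanog in GFP-high cells or at 24 h of lot 2. The folds come from separate lists, and are not read here as a change.

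The share with H3K4me3 depended on the height of the serum Sox2 peak. Split at the quartiles of their own Sox2 fold (6.64, 7.94 and 9.77), the serum-only regions had serum H3K4me3 at 37.9% (34.2 to 41.6), 15.7%, 10.7% and 7.56% (5.68 to 9.81) from the lowest to the highest class. All serum Sox2 regions, split at the same folds, had 30.4%, 15.6%, 11.4% and 9.78%, and lasting regions 12.0%, 9.05%, 9.26% and 9.53%. Above the lowest class the serum-only regions were thus close to all serum Sox2 regions of like Sox2 fold. The serum-only regions without Nanog or Oct4 had H3K4me3 at 40.9%, 34.6% and 37.0% in serum, at 24 h and at 3 passages, and those with both factors at 17.6%, 12.7% and 16.1%.

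Nanog was called less often at these regions with time in 2i, while at lasting regions it was called nearly everywhere. With lot 1, a Nanog peak was found at 2297 of 2701 regions in serum (85.0%, 83.6 to 86.4), at 2098 at 24 h (77.7%, 76.1 to 79.2) and at 1562 at 3 passages (57.8%, 55.9 to 59.7). The shares of all Sox2 regions were 70.3%, 80.2% and 74.1%. Lasting regions had 92.5%, 98.5% and 94.4%. Since the rule required Nanog in any list, the same was counted over all 3796 serum-only Sox2 regions without that condition, and the order was the same, with 69.9%, 63.8% and 48.3%. At the 2701 regions the share in serum stood above that of all Sox2 regions, but the 2701 were chosen for Nanog. Without that condition the serum share was close to that of all Sox2 regions, with 69.9% against 70.3%. At 3 passages the share was below that of all Sox2 regions with and without the condition, with 57.8% and 48.3% against 74.1%.

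The 24 h list of lot 1 is the longest, and its share depended on that. With all 6 Nanog lists at 21188 peaks, the serum-only regions had Nanog at 79.6% in serum (78.0 to 81.1), 43.1% at 24 h (41.2 to 45.0) and 37.4% at 3 passages (35.6 to 39.3). At the same length all Sox2 regions had 66.6%, 65.1% and 64.3%, and lasting regions 90.1%, 89.3% and 89.2%. At equal length most of the difference between serum and 3 passages was therefore already present at 24 h. As deposited, most of it lay between 24 h and 3 passages.

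**Figure D2:**
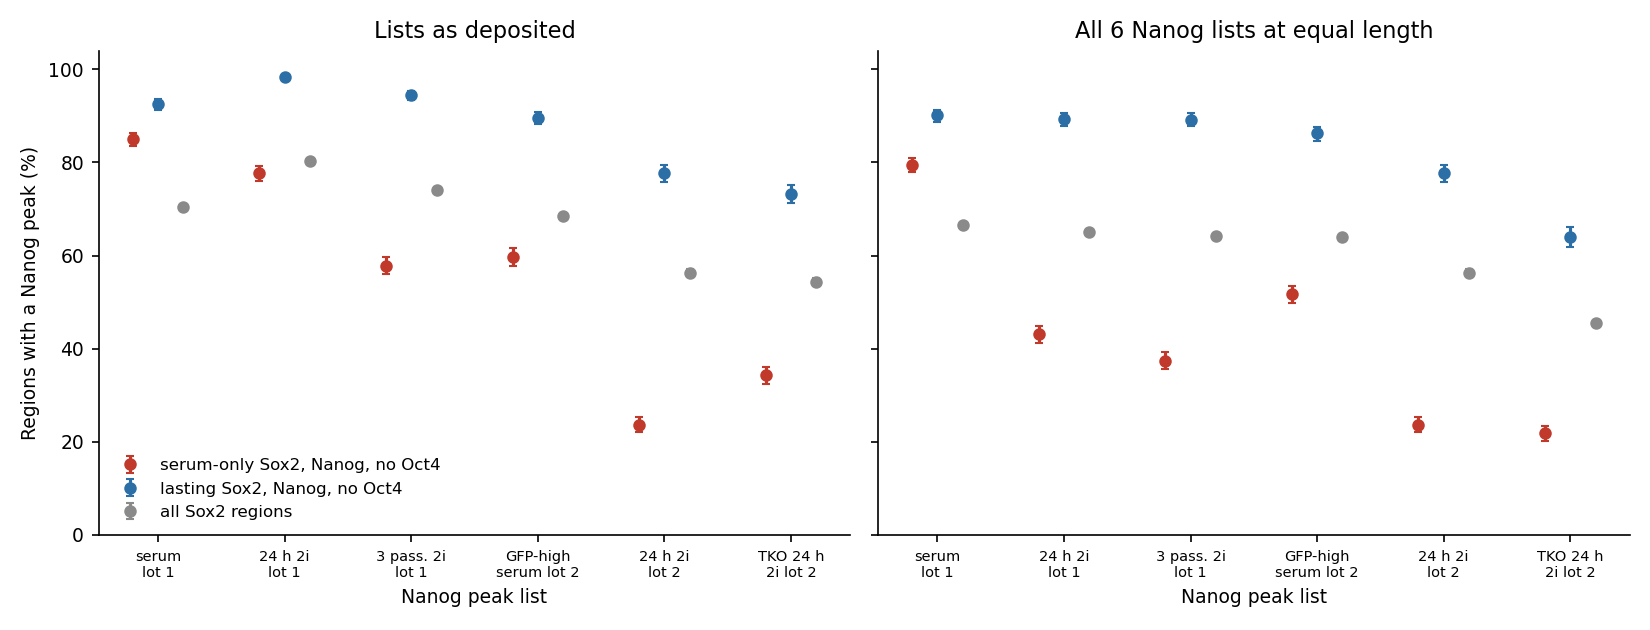
Share of regions with a Nanog peak (%) in each of the 6 Nanog lists, as deposited (left) and with all lists limited to 21188 peaks (right); red, serum-only Sox2 regions with Nanog and without Oct4; blue, lasting regions; grey, all Sox2 regions; error bars are exact 95% intervals. At equal length the red points of lot 1 stand at 79.6%, 43.1% and 37.4%, while the blue and grey points of the same lists stay level.

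By pattern, 1377 regions (51.0%; all Sox2 regions 62.1%) had lot 1 Nanog in all 3 conditions. A further 422 (15.6%; all Sox2 regions 3.04%) had it in serum alone, 424 in serum and at 24 h, and 74 in serum and at 3 passages. Of the 422, 403 also had no Nanog peak in the lot 2 lists of 24 h and TKO cells. Nanog of lot 1 was missing in serum and present in 2i at 317 regions (11.7%; all Sox2 regions 14.9%), of which 206 had it at 24 h alone. For 73 of the 317 a serum peak was called in GFP-high cells. The remaining 87 regions had no lot 1 peak and entered through lot 2. Counted over all 6 lists, 486 regions had Nanog in 1 list and 360 in every list, with 403 to 570 regions for each number in between. Counts given here without a share of all Sox2 regions describe the set and are not read as particular to it.

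Where Nanog was bound in serum, 1801 of 2297 regions (78.4%, 76.7 to 80.1) had it at 24 h and 1451 (63.2%, 61.2 to 65.1) at 3 passages. Among all Sox2 regions with serum Nanog these shares were 94.5% and 89.5%, and at lasting regions 99.4% and 97.6%. The shares went with the height of the serum Nanog peak. With the serum Nanog list split into 4 equal classes by fold (limits 8.79, 12.0 and 19.6), the share at 3 passages was 39.8%, 53.8%, 67.6% and 80.2% from the lowest class to the highest. At 24 h it was 71.1%, 69.4%, 79.1% and 89.0%. All Sox2 regions in the same classes had 73.0%, 82.9%, 90.8% and 96.7% at 3 passages, and 87.9%, 90.0%, 94.8% and 98.3% at 24 h. Lasting regions had 86.2%, 95.7%, 98.0% and 99.9% at 3 passages. The highest class of serum-only regions (532 of 663, interval 77.0 to 83.2) and the lowest class of lasting regions (137 of 159, 79.8 to 91.1) had overlapping intervals.

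**Figure D3:**
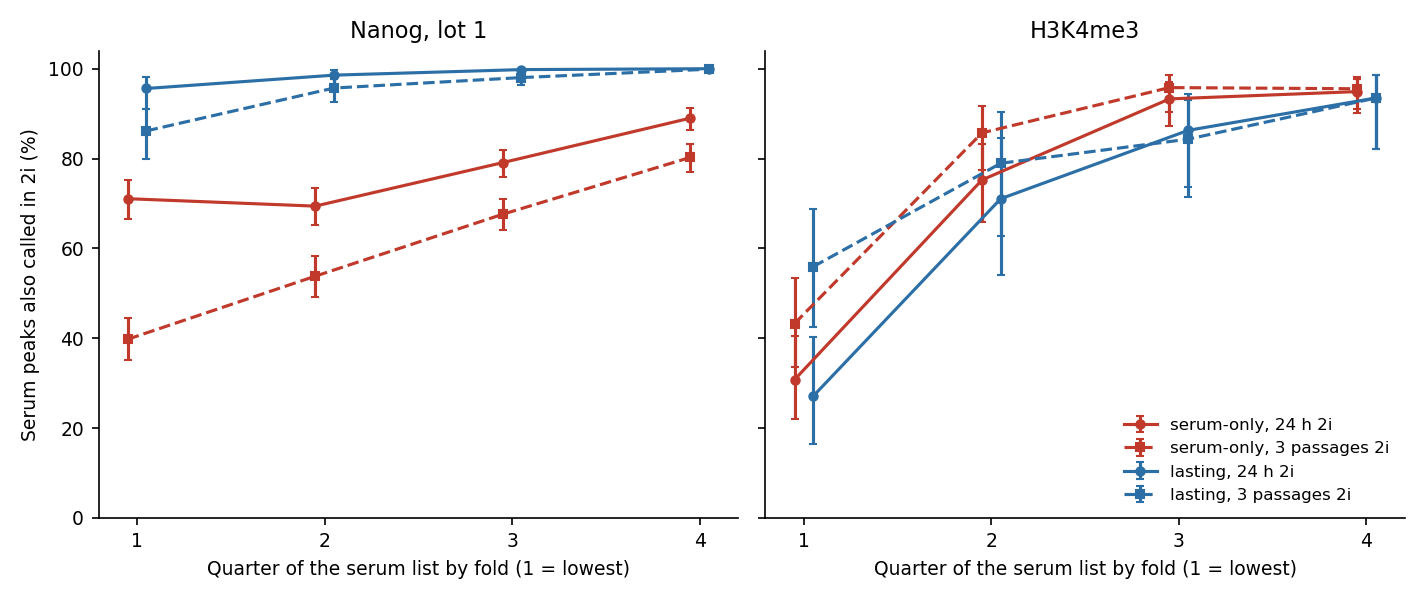
Share of serum peaks also called in 2i (%), by class of the serum list's fold (1 lowest, 4 highest), for Nanog of lot 1 (left) and H3K4me3 (right) at serum-only regions (red) and lasting regions (blue); solid lines are 24 h, dashed lines 3 passages, error bars exact 95% intervals. For Nanog the red lines lie below the blue lines in every class. For H3K4me3 the order of red and blue differs between classes, and at 3 passages red is lower in class 1 (43.3% against 55.9%) and higher in class 3 (95.8% against 84.3%), with overlapping intervals in both.

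In the 4 classes of serum Sox2 fold, 51.8%, 57.1%, 55.9% and 66.5% of serum-only regions had lot 1 Nanog at 3 passages. All serum Sox2 regions with the same Sox2 folds, which were not required to have Nanog, had 58.9%, 65.8%, 71.6% and 87.8%. Against this background, which includes them, the serum-only regions were thus lower in each class. Any Nanog peak was found at 83.5%, 85.8%, 89.9% and 96.3% of the background regions. The size of the gap is therefore not compared between classes. Lasting regions, chosen for Sox2 calls in 2i, had 94.7%, 96.1%, 92.9% and 94.5%. In serum, 72.6%, 83.1%, 89.3% and 95.1% of serum-only regions had lot 1 Nanog, against 66.4%, 74.1%, 81.3% and 92.9% of all serum Sox2 regions. Only the serum-only regions were chosen for Nanog, so their higher serum shares are not read as a result.

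Where Nanog peaks were present, they were lower at the median than those at lasting regions and at all Sox2 regions in the same list. In serum the median fold was 14.1 at serum-only regions and 19.4 at lasting regions, in a list with a median of 12.0. At 24 h the medians were 10.2 and 22.5 (list 10.7), and at 3 passages 7.80 and 17.2 (list 8.84). In ranks within each list, the serum-only regions stood at the median at percentile 59.8 in serum, 47.3 at 24 h and 41.2 at 3 passages, the lasting regions at 74.7, 82.0 and 80.7, and all Sox2 regions at 68.6, 76.0 and 72.1. The lists differ in length, so these ranks are compared between sets within a list and not across lists.

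**Figure D4:**
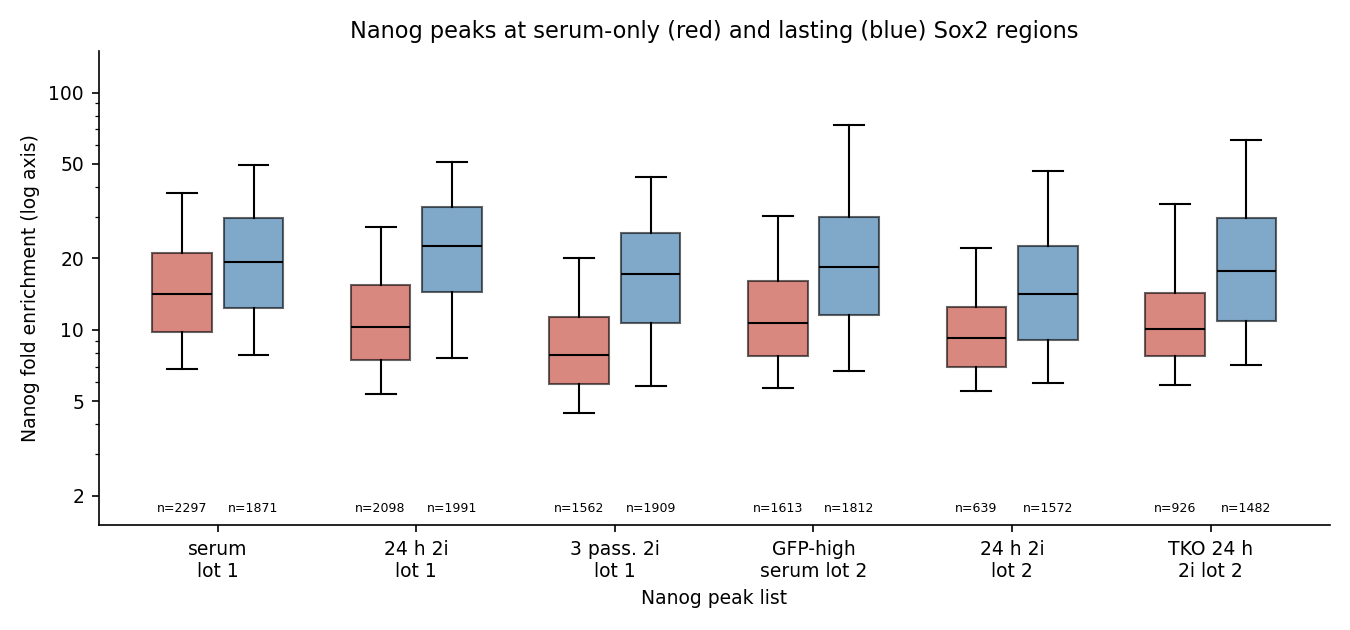
Fold enrichment of Nanog peaks (log axis) in each Nanog list at serum-only (red) and lasting (blue) Sox2 regions; boxes span the quartiles, lines mark medians, whiskers the percentiles 5 and 95, and n is the number of regions with a peak in that list. In each of the 6 lists the median of the red boxes is below that of the blue boxes, for example 7.80 against 17.2 at 3 passages.

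The shares were lower in the lists of the second antibody lot. Its serum list came from GFP-high cells, so the lot cannot be told apart from the choice of cells there. In GFP-high serum cells Nanog was called at 1613 of the 2701 regions (59.7%, 57.8 to 61.6; all Sox2 regions 68.4%), and at 24 h at 639 (23.7%, 22.1 to 25.3; all Sox2 regions 56.4%). Of the 1613, 567 (35.2%, 32.8 to 37.5) had a lot 2 peak at 24 h, against 75.6% of all Sox2 regions with Nanog in GFP-high cells and 84.0% of lasting regions. Both lots thus placed the serum-only regions below all Sox2 regions in 2i, but they differed in the level at 24 h, with 77.7% in lot 1 and 23.7% in lot 2 as deposited, and 43.1% and 23.7% at equal length. In serum, GFP-high cells of lot 2 were below all Sox2 regions (59.7% against 68.4%), and lot 1 was above (85.0% against 70.3%). The 2701 regions were chosen for Nanog, so the higher share in lot 1 is not read as a result. Over all 3796 serum-only Sox2 regions, without that condition, the shares were 50.2% in GFP-high cells and 69.9% in lot 1. The lower shares in lot 2 were thus not limited to 2i.

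In TKO cells at 24 h, Nanog was called at 926 regions (34.3%, 32.5 to 36.1; all Sox2 regions 54.4%). At equal list length the TKO share was 21.8%, and that of KH2 cells with the same lot at 24 h 23.7%. So the higher TKO share as deposited did not stay at equal length. At 60 regions (2.22%, against 0.88% of all Sox2 regions) the TKO peak was the only Nanog peak. Of these, 37 had H3K4me3 in all 3 lists, against 358 of the 2701 regions. The mark was not counted over all Sox2 regions with a TKO Nanog peak alone, so this is a description. The tallest of the 60 was chr11:103193624-103194235, with a TKO Nanog fold of 13.0 and a low H3K4me3 peak in serum alone (4.48). The next, chr2:31615199-31615647, had a TKO Nanog fold of 12.1 and H3K4me3 folds of 10.6, 9.09 and 16.2.

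Single regions show the range. The tallest Sox2 peak of the set was at chr17:89162742-89163931, with a serum Sox2 fold of 27.1. Its Nanog folds were 61.7, 24.1 and 16.6 in the lot 1 lists of serum, 24 h and 3 passages, and 23.2, 9.11 and 9.52 in the lot 2 lists of GFP-high, 24 h and TKO cells. At chr8:119774698-119775532 the Sox2 fold was 26.9 and the Nanog folds of lot 1 were 51.9, 23.5 and 11.4, with 22.4 in GFP-high cells and no peak in the other lot 2 lists. At chr12:41430686-41431384, with a Sox2 fold of 22.8, Nanog was called in serum (25.1) and in GFP-high cells (8.93) and in no 2i list. At chr2:72980793-72981400 the Sox2 fold was 22.7, and the Nanog folds were 45.1 in serum, 5.59 at 24 h and 12.9 in GFP-high cells. None of these regions had H3K4me3. Tall serum Sox2 peaks with tall serum Nanog peaks were thus found both with and without Nanog peaks in 2i.

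Among regions with lot 1 Nanog in all 3 conditions, the tallest serum Nanog peaks were at chr8:50280051-50281007 (folds 96.5, 24.2 and 13.4), chr5:121384013-121384319 (94.7, 46.1 and 29.9), chr17:17875467-17876015 (83.2, 28.5 and 58.8) and chr4:111802807-111803213 (68.6, 36.6 and 16.8). The third was also among the tallest Sox2 peaks (23.9) and had a Nanog fold of 154.5 in GFP-high cells. Tall serum Nanog peaks without any lot 1 peak in 2i were found at chr17:41041109-41041543 (49.0), chr2:47185989-47186495 (44.7) and chr8:9886430-9887273 (41.4, with 16.7 in GFP-high cells). None of these had H3K4me3 or a lot 2 peak at 24 h. In the other direction, chr13:57653101-57653512 had no lot 1 peak in serum but folds of 27.7 at 24 h and 17.6 at 3 passages. A serum peak was called there in GFP-high cells (16.2). At chr17:48813831-48814156 (24.3 and 8.14) and chr13:53006624-53007001 (18.6 and 13.7) neither serum list held a peak. At chr15:82783366-82783912 the folds were 19.8 and 5.94, with 11.4 in GFP-high cells.

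Nanog was called at fewer of the regions with H3K4me3 than of those without it in serum and at 3 passages, as it was among all Sox2 regions. At the 2177 regions without the mark, Nanog of lot 1 was called at 89.7% in serum, 76.8% at 24 h and 62.5% at 3 passages. At the 358 regions marked throughout, the shares were 60.1% (54.8 to 65.2), 82.7% (78.4 to 86.5) and 33.2% (28.4 to 38.4). Among all Sox2 regions, the 17156 without the mark had Nanog at 71.2%, 81.1% and 76.1%, and the 1438 marked throughout at 57.7%, 70.2% and 50.1%. Part of the difference in serum and at 3 passages is thus found in all Sox2 regions. At 24 h the marked serum-only regions stood above the unmarked ones, and the order over all Sox2 regions was the reverse. Only the serum-only regions were chosen for Nanog, and this 24 h list was among those used. Among all Sox2 regions, any Nanog peak was found at 77.1% of the marked and 87.9% of the unmarked ones. The reverse order at 24 h is therefore not read as a result. The higher share at 24 h than in serum at the marked regions did not hold at equal list length, where the 3 values were 50.3%, 32.7% and 18.4%, against 84.9%, 45.1% and 40.9% at the unmarked regions. At equal length both groups thus had the order serum, 24 h, 3 passages, and marked regions were below unmarked ones in all 3 lists. All Sox2 regions at that length had 52.8%, 47.1% and 40.5% where marked and 67.4%, 66.6% and 66.2% where unmarked. The 73 regions with H3K4me3 in serum alone had 80.8%, 76.7% and 47.9% as deposited. In lot 2, Nanog was called at 29.6% of the marked and 65.0% of the unmarked regions in GFP-high cells, and at 10.1% and 26.1% at 24 h. For all Sox2 regions these shares were 46.9% and 70.1% in GFP-high cells, and 33.6% and 58.2% at 24 h.

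In TKO cells Nanog was called at 54.2% (48.9 to 59.4) of the marked and 30.4% (28.5 to 32.4) of the unmarked serum-only regions. Among all Sox2 regions the TKO shares were 53.7% and 53.8%. The serum-only regions were chosen for Nanog in any list, TKO cells included, and all Sox2 regions were not. Among all Sox2 regions, any Nanog peak was found at 77.1% of the marked and 87.9% of the unmarked ones. The unmarked serum-only regions were thus below all Sox2 regions although chosen for Nanog. The near equal shares of the marked ones are not read as a result. At equal length the TKO shares were 33.0% and 19.9% at serum-only regions, and 41.6% and 45.2% at all Sox2 regions. Both groups were thus below all Sox2 regions. The sizes of these gaps are not compared, for the same reason. The marked regions also had lower serum Sox2 peaks, with a median fold of 6.41 against 8.24 at unmarked regions (7.63 and 10.002 among all Sox2 regions), and the part of this in the Nanog shares was not tested.

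**Figure D5:**
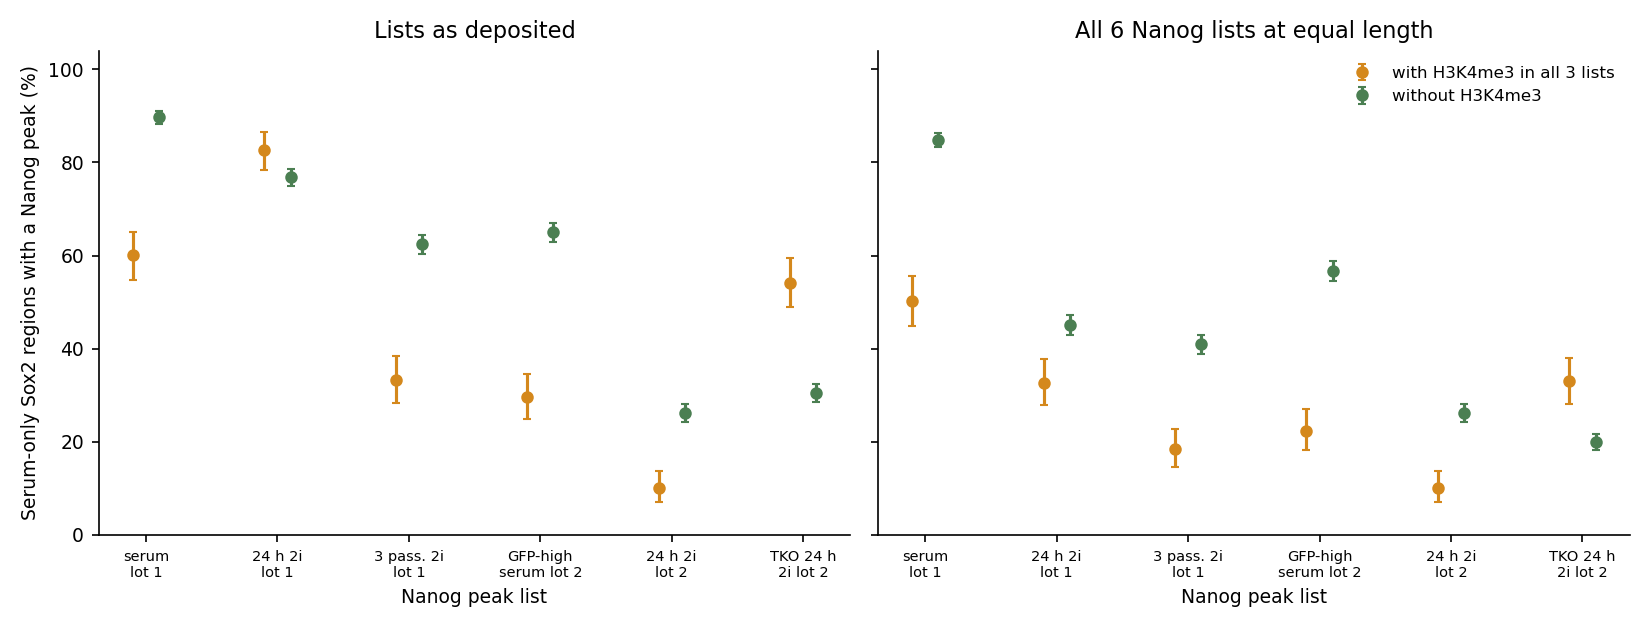
Share of serum-only Sox2 regions with a Nanog peak (%) in each Nanog list, as deposited (left) and at equal list length (right), for the 358 regions with H3K4me3 in all 3 lists (orange) and the 2177 without H3K4me3 (green); error bars are exact 95% intervals. The orange points lie below the green ones in all lists except TKO cells and, as deposited, 24 h of lot 1 (82.7% against 76.8%).

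The Nanog summits lay close to the Sox2 summits. The distance from the serum Sox2 summit to the serum Nanog summit of lot 1 had a median of 30 bp (quartiles 13 and 57), and 70.8% of the 2297 pairs were within 50 bp. Over all Sox2 regions the median was 26 bp with 75.4% within 50 bp, and at lasting regions 23 bp with 77.7%, so the serum-only regions had slightly larger distances than both. In the other lists the median was 31 bp at 24 h, 40 bp at 3 passages, 47 bp in GFP-high cells, 49 bp at 24 h of lot 2 and 68 bp in TKO cells. At regions with H3K4me3 throughout the Nanog summits were farther away, with medians of 41 bp in serum and 95.5 bp in TKO cells, against 29 bp and 60 bp at unmarked regions. All Sox2 regions showed the same order, with 34 bp and 65 bp where marked and 25 bp and 44 bp where unmarked. H3K4me3 summits were farther off: in serum the median was 437 bp (all Sox2 regions 466 bp), and 2.89% of 485 lay within 50 bp of the Sox2 summit. The H3K4me3 peaks at these regions had a median fold of 14.6 and a width of 2133 bp in serum, near the 13.8 and 1995 bp of all Sox2 regions with the mark (whole list 12.5 and 1503 bp). At 24 h they had 10.7 and 1570 bp (all Sox2 regions 9.33 and 1424 bp), and at 3 passages 12.5 and 1760 bp (all Sox2 regions 10.2 and 1455 bp).

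The nearest serum H3K4me3 peak was at a median of 24464 bp, and 650 regions (24.1%) had none within 100 kb. The 2701 regions thus lay nearer to H3K4me3 at the median than all Sox2 regions (37590 bp, 30.4% beyond 100 kb) and than lasting regions (31205.5 bp, 24.4%). Serum-only regions without Nanog or Oct4 lay nearer still (4203.5 bp, 10.9%). A 24 h Sox2 peak was found within 1 kb of 90 regions (3.33%) and within 10 kb of 558 (20.7%), and a 3 passage Sox2 peak within 10 kb of 382 (14.1%). For most of the regions no 2i list thus held a Sox2 peak within 10 kb. These distances to 2i peaks were not counted for other Sox2 regions. A Sox2 region of all 3 lists lay within 50 kb of 886 (32.8%), near the 29.4% of the 670 serum-only regions without Nanog or Oct4. Another of the 2701 regions lay within 50 kb of 596 (22.1%). This spacing was not counted for other Sox2 regions and is not read as clustering. By chromosome, they made up from 16.5% (chromosome 16) to 24.5% (chromosome 11) of the serum Sox2 regions.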

How the data were processed

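The 14 deposited peak lists (mm9, narrowPeak) were used. MACS2, BWA 0.5.7 and Bowtie 0.12.7 are named in the submitters' processing notes. Which aligner made which list, the cut-off of each list and how replicates were pooled are not given in the sources used here. Per the format of the deposited files, the authors give for each peak a fold enrichment (a ratio over the control), a −log10 q and the offset of its summit. Fold and −log10 q were used to describe, rank or limit peaks within a list, and once, as an added alternative, to set one list against the lowest −log10 q of another.

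Regions were built with python 3.11.15, numpy 2.4.6 and pandas 2.3.3. A region counts as bound or marked in a condition where it overlaps a peak of that list by at least 1 bp. Overlaps, merging and distances were checked on simulated intervals against bedtools 2.31.1. A distance of 1 bp means touching. Intervals come from scipy 1.17.1. With 1 list per condition no test was made. The regions and comparison sets were chosen with earlier results of these data known. Named regions follow a rule: the tallest serum Sox2 peaks, and the tallest peaks within each H3K4me3 or Nanog pattern. A few of these, on chromosome 18, are not listed. No genome or gene annotation of mm9 was used here, so sequences, motifs and gene names are not reported. H3K27me3, the input and RNA samples were not analysed here.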

Additional observations from a re-analysis of the deposited data

How the results depend on the processing

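In every setting run, serum was the highest of the 3 shares for both H3K4me3 and lot 1 Nanog. Nanog was called at more regions at 24 h than at 3 passages, and H3K4me3 at more at 3 passages than at 24 h. With 2i Sox2 limited to the lowest serum −log10 q, the Nanog shares in serum and at 24 h were nearly equal, with 86.98% and 86.22%. Of 79 values under other settings, 42 stayed within the interval of the reported value, or within 1.5 times for the number of regions. The settings with 2i Sox2 limited to the lowest serum −log10 q, without the Sox2 list of 3 passages, without the Oct4 condition and with all 6 Nanog lists at equal length were chosen after seeing the data. The number of regions, 2701, was 4167 with a minimum −log10 q of 10 in all lists, 1549 with the Sox2 lists at equal length and 5254 with 2i Sox2 limited to the lowest serum −log10 q, so the size of the set depends on where the Sox2 lists end.

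H3K4me3 in serum, at 24 h and at 3 passages was found at 15.38%, 10.90% and 13.05% with an overlap of at least 50% of the shorter peak, 21.13%, 17.47% and 19.60% with peaks up to 1000 bp apart joined, 16.27%, 12.07% and 13.62% with Sox2 lists of equal length, and 14.66%, 11.65% and 13.78% with 2i Sox2 limited. A minimum −log10 q of 10 gave 16.17% in serum and 10.92% at 24 h.

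Lot 1 Nanog in serum, at 24 h and at 3 passages was found at 91.03%, 84.44% and 67.27% with Sox2 lists of equal length, 87.87%, 80.26% and 59.76% when members were chosen by lot 1 alone, 86.98%, 86.22% and 71.62% with 2i Sox2 limited, and 79.56%, 43.06% and 37.43% with all 6 Nanog lists of equal length. With the lot 1 lists of equal length it was 50.87% at 24 h and 44.09% at 3 passages. A minimum −log10 q of 10 gave 83.68% and 66.47%, leaving out the Sox2 list of 3 passages 79.28% and 61.67%, and leaving out the TKO list 86.97% in serum and 79.44% at 24 h.

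No paired analysis was possible because each condition has 1 list and no value per replicate, and for the same reason leaving out replicates was not done. Depth is unknown, so a missing peak means not called, not absent.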
